A study of Homo sapiens with 16 samples.

Results

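The comparison set all 8 microarrays of HGF-treated 16HBE cells against all 8 microarrays of untreated 16HBE cells, with both MET genotypes in each arm, and asked which transcripts responded to HGF whatever the genotype. Members were chosen by the labelled agent alone, so that all 16 arrays of the series took part (8 of 16 with HGF). 16HBE is a laboratory line of human airway epithelium, taken from a bronchus and immortalised. 16HBE-WT cells carry unedited MET, whereas 16HBE-ex14 cells were made by CRISPR/Cas9 editing and limiting dilution so that exon 14 of MET is skipped. Per the study's text the edited cells on the arrays were a single clone, F, so that a difference between genotypes cannot be told apart from one between this clone and the parental cells. The 4 conditions, named 16HBE-WT and 16HBE-ex14 without and 16HBE-WT+HGF and 16HBE-ex14+HGF with the ligand, had 4 arrays each. All cells, controls included, were kept for 2 h without serum, and the treated cells then received 20 ng/mL HGF for 24 h. Per the study's methods the replicates were separated by a week of culture, but the labels do not tie an array to a week, and replicate numbers used here follow the order in which the samples are listed. The array files give no cell composition, so fewer cells of a type and less RNA per cell cannot be told apart.

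HGF, also named scatter factor, is secreted by mesenchymal cells and binds the receptor tyrosine kinase MET on epithelial cells. Ligand-bound MET dimerises, phosphorylates itself and recruits adaptors such as GAB1 and GRB2, which feed the RAS-ERK and PI3K-AKT pathways. Exon 14 encodes the juxtamembrane region that holds the binding site of the ubiquitin ligase CBL, through which activated MET is removed from the cell surface. In epithelia the HGF-MET pair is known for loosening of cell contacts, motility, branching and invasive growth, with matrix proteases and ERK-dependent transcription factors among its well-known targets.

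Levels are given as the log2 intensity of a probe minus the 75th percentile of its array, so that 0 is the level of a fairly bright probe. Differences are HGF minus untreated on the same log2 scale, from a linear model in limma with genotype and slide as further terms, with the standard error (SE). A probe was called at a Benjamini-Hochberg adjusted p below 0.05 together with a fold change above 1.5, the limits of the study. Of 58201 probes, 34599 (59.4%) were well above background on at least 4 arrays and were tested. The 75th percentile of intensity averaged 202 on untreated and 196 on HGF arrays (exact permutation test within genotype, two-sided p = 0.58). The share of probes well above background averaged 53.1% without and 55.1% with HGF (exact p = 0.142), with 53.7% and 57.9% in 16HBE-ex14 and 52.6% and 52.3% in 16HBE-WT, and the part of this in the results was not tested. All 10 airway epithelial markers examined, such as EPCAM, CDH1 and KRT8, were well above background on every array, and KRT5 alone among them was called. Of 6 endothelial markers, PECAM1, KDR and TEK were above background on no array, CLDN5 on 1 and CDH5 and VWF on all 16. Of 8 fibroblast markers, COL1A2, COL3A1, DCN, PDGFRA and THY1 were above background on no array, LUM on 8 and COL1A1 and PDGFRB on all 16. Of 6 leukocyte markers, PTPRC, CD3E, CD14 and ITGAM were above background on all 16 arrays, 1 was so on a single array, and no probe carried the name CD68. None of these markers of other cells was called. On the log2 scale the summed level of the endothelial list lay between -1.23 and -0.64 without and between -1.75 and -0.89 with HGF, that of the fibroblast list between -1.48 and 0.15 and between -1.2 and -0.25, and that of the leukocyte list between -0.20 and 0.66 and between -0.05 and 0.61.

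HGF changed 392 probes, which is 1.13% of those tested. Of these, 231 (0.668% of all tested probes) were raised and 161 (0.465%) lowered, naming 211 and 140 genes. Among them 23 raised probes were below background on all 8 untreated arrays and 3 probes on all 8 HGF arrays, and these passed the filter on dim probes through the other arm alone. Further raised probes were above background on fewer than 4 untreated arrays, and so passed the filter only with their HGF arrays. Those of MMP1, KRT6B, ADGRL4 and SPRY4-AS1 are such probes. Likewise, some lowered probes were above background on fewer than 4 HGF arrays, and so passed the filter only with their untreated arrays. Those of PSG2 and the brighter one of PLEKHS1 are examples. The adjusted p of all these probes is no more than a description. The fitted difference was highest for MMP1, the interstitial collagenase (2.57), and lowest for a probe of PLEKHS1, a pleckstrin homology domain protein (-2.15), both below background on part of the arrays. Among the 261 called probes above background on all 16 arrays, VIM (1.66) and ALPP (-1.60) were at the ends of the range. The smallest adjusted p, 0.00395, belonged to AREG, a ligand of the EGF receptor. The median size of a called difference was 0.80 against 0.12 over all probes. Without the fold change limit 1180 probes passed, 585 raised and 595 lowered. The size of a dim probe's difference depended on the background correction. With normexp correction, which adds an offset of 50 to every intensity and so compresses the differences of dim probes, 135 probes were called, and of the 45 called genes picked by the naming rule 20 were lost, 19 of them through the fold limit alone. The balance of directions depended on the scaling of the arrays. Raised probes made up 58.9% of the calls after scaling to the 75th percentile, 49.1% after scaling to spike-in probes, 42.7% after quantile normalisation and 24.8% after scaling to the array median. The median difference over all probes was 0.05 in the first case and -0.09 in the last, so that differences near these values have no settled direction.

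The promoters below belong to the raised gene of smallest p and to 3 raised genes whose HGF arrays stood above the untreated ones in each genotype, and show where the letters of a pair of ERK- and stress-linked response elements lie near their start sites. The sequences are those of RefSeq on GRCh38.p14, from 250 bases before to 50 after the annotated start, written 5′ to 3′ on the strand of the gene. Capitals mark TGANTCA, the letters of the AP-1 element, or TGACGTCA, the letters of the cAMP response element, searched on both strands. AREG lies at chr4:74444886-74445185 (+), VIM at chr10:17227991-17228290 (+), its antisense gene VIM-AS1 at chr10:17226849-17227148 (-) and ADGRL4 at chr1:79006681-79006980 (-).
AREG: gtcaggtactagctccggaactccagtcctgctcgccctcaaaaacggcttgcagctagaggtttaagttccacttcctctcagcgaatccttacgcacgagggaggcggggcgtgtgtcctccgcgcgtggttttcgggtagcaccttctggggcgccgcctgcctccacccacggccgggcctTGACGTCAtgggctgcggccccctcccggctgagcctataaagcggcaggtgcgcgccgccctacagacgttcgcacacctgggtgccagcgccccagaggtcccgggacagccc
VIM: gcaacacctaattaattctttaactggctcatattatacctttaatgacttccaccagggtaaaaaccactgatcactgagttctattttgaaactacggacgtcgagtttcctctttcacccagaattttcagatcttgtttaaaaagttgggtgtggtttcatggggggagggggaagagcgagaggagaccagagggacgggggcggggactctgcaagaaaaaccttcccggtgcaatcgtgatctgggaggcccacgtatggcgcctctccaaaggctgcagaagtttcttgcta
VIM-AS1: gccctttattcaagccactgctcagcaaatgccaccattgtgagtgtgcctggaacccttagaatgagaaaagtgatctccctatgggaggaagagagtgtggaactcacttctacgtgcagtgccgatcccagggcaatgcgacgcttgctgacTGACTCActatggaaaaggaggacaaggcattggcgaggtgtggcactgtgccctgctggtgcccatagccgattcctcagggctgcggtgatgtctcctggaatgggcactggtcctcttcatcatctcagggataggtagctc
ADGRL4: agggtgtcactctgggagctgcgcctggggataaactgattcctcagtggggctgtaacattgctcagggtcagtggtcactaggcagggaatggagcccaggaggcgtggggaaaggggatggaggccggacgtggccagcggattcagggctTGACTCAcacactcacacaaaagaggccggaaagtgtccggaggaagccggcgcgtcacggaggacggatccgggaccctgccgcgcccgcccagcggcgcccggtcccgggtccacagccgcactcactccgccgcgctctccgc
The AREG promoter held TGACGTCA with its first base at -65, and held no TGANTCA. In VIM-AS1 and ADGRL4 the AP-1 letters began at -95 and -96, while the VIM window held neither motif. The promoters shown are a selection. Those of COL13A1 and EHF, raised genes also apart in each genotype, held neither motif. Of 211 genes with a raised probe, 100 had a promoter in the table, and 13 of them held TGANTCA. The same letters stood in 4 of 101 promoters (3.96%) of genes with a lowered probe, in 5.82% of the 13597 promoters of all genes tested and in 7.91% of all 27305 promoters of the table. TGACGTCA was found in 1 of the 100 promoters of raised genes, that of AREG, and in 2.62% of the promoters of all genes tested. These counts describe letters in a window and were not tested.

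AREG rose with HGF over both genotypes. Its probe (chr4:75320518-75320577 on hg19) read 4.93, 5.08, 5.16 and 5.21 on the untreated 16HBE-WT arrays and 5.65, 5.70, 5.54 and 5.61 with HGF. In 16HBE-ex14 it read 5.62, 5.49, 5.89 and 5.77 without and 6.34, 6.23, 6.54 and 6.54 with HGF. In each genotype every HGF array stood above every untreated array. The pooled difference was 0.62 ± 0.06 (SE, 8 against 8 arrays), with 0.53 ± 0.09 in 16HBE-WT and 0.72 ± 0.09 in 16HBE-ex14. It lies close to the fold limit of 0.58 on this scale, and came under it after scaling to the array median (0.48) and after scaling to spike-in probes (0.57), and it missed the p limit without scaling. A second AREG probe had 0.55 and was not called. Among 10 tested members of the EGF receptor family and its ligands AREG was the sole call, with a list median of 0.25. The highest difference of the list, 0.68, belonged to another member, which missed the p limit. EREG, a further ligand of the receptor, passed the p limit below the fold limit (0.36, adjusted p = 0.0263), as did the receptor ERBB3 in the other direction (-0.37, adjusted p = 0.0306).

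**Figure D1:**
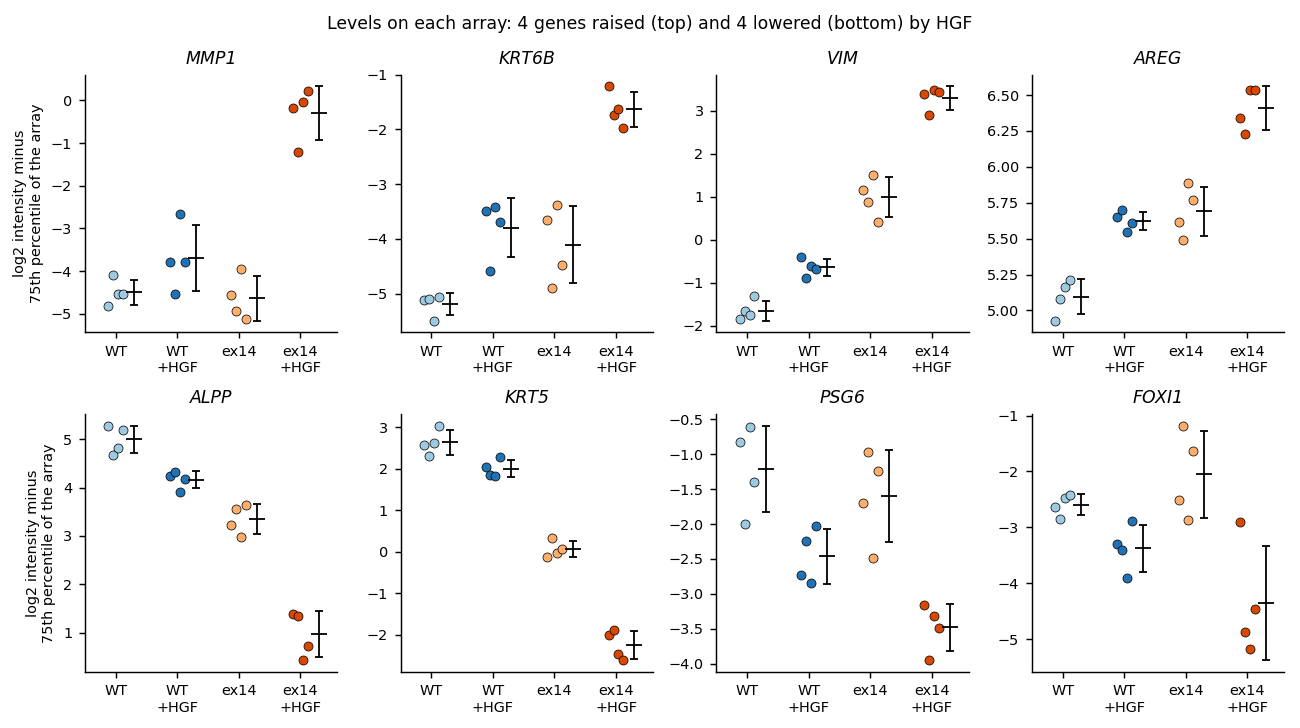
Level of 8 genes on each of the 16 arrays (y axis, log2 intensity minus the 75th percentile of the array) in the 4 conditions (x axis). Points are arrays and the bar beside them is the mean with its SD over 4 arrays. AREG, KRT6B and VIM stand higher and ALPP, KRT5, PSG6 and FOXI1 lower on every HGF array than on every untreated array of the same genotype, and MMP1 overlaps in 16HBE-WT.

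Genes of matrix degradation were called in both directions. In the list of matrix proteases and their inhibitors, 19 of 24 genes were tested, 4 were called raised (MMP1, MMP3, MMP9 and ADAM19) and 1 lowered (ADAMTS1), with a list median of 0.07. Over all tested probes 0.668% were called raised and 0.465% lowered. Of the 19 genes 10 stood above 0 and 9 below. After scaling to the array median 6 stood above and 13 below (list median -0.07). MMP1 read -4.81, -4.09, -4.53 and -4.53 on the untreated 16HBE-WT arrays, none of them well above background, and -3.78, -4.54, -2.67 and -3.77 with HGF. On the 16HBE-ex14 arrays it read -4.55, -4.93, -3.94 and -5.13 without HGF, 1 of them above background, and -0.17, -1.2, -0.04 and 0.23 with HGF. The groups overlapped in 16HBE-WT and stood far apart in 16HBE-ex14. The pooled difference of MMP1 was 2.57 ± 0.53 (adjusted p = 0.0219). In 16HBE-WT alone MMP1 missed the p limit (adjusted p = 0.712). Since the probe was below background in the untreated WT cells, the mean WT level with HGF is given as at least 1.45-fold higher. Such bounds, here and below, raise dim levels to the lowest level above background of their array. They take no account of the spread between arrays. Since 7 of the 8 untreated arrays were at background, the size of the pooled difference is not settled, and it was 0.97 with normexp correction, still called. MMP3, or stromelysin-1, had untreated levels from -4.72 to -2.62 (median -3.90) and HGF levels from -3.83 to -0.47 (median -2.18), with a pooled difference of 1.55 ± 0.36 (adjusted p = 0.032), or 0.59 after normexp.

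MMP9, the gelatinase B of the family, was bright on all arrays. It read 1.64, 2.65, 2.60 and 2.74 in untreated and 3.12, 2.63, 3.22 and 3.49 in HGF-treated 16HBE-WT cells, and 2.31, 2.42, 3.07 and 1.96 against 4.27, 3.62, 3.89 and 3.76 in 16HBE-ex14. A single WT array with HGF fell within the untreated range, and the pooled difference was 1.08 ± 0.21 (adjusted p = 0.0168). ADAM19, a membrane-bound sheddase, rose by 1.02 ± 0.21 (adjusted p = 0.0209), from a median of 1.80 to 2.77. A second ADAM19 probe had 1.01 and was not called. ADAMTS1, a secreted protease that cleaves proteoglycans, fell by 0.61 on the log2 scale (SE 0.10, adjusted p = 0.0104), and its second probe fell as well (-0.69), though the first came under the fold limit with normexp (-0.49). ADAM8 passed the p limit with a difference just under the fold limit (0.58, adjusted p = 0.015), all its HGF arrays standing above the untreated ones in each genotype. TIMP1, an inhibitor of these proteases, had a difference of 0.40 (adjusted p = 0.0339), and ADAMTSL4, a secreted matrix protein without protease activity, one of -0.38 (adjusted p = 0.111). The 3 probes of ADAMTSL4 ran from -0.715 to -0.38 and the 3 of ADAM8 from 0.29 to 0.58, and none was called. In 16HBE-ex14 taken alone, ADAM8 (0.84, adjusted p = 0.00166) and ADAMTSL4 (-0.70, adjusted p = 0.0112) passed both limits. In 16HBE-WT they had 0.31 and -0.07. When replicate 2 of 16HBE-ex14 or 16HBE-ex14+HGF replicate 2, 3 or 4 was left out, MMP1 (2.37 to 2.54, adjusted p 0.0508 to 0.053) and ADAM19 (0.95 to 0.98, adjusted p 0.0504 to 0.0512) missed the p limit. MMP3 missed it without any of 10 arrays, namely 16HBE-WT replicates 1 and 3, 16HBE-WT+HGF replicate 1, 16HBE-ex14 replicates 1, 2 and 4 and each 16HBE-ex14+HGF replicate (1.37 to 1.62, adjusted p 0.0502 to 0.0733). ADAMTS1 slipped under the fold limit (-0.58 to -0.56) without 16HBE-WT replicate 3, replicate 2 or 4 of 16HBE-ex14 or 16HBE-ex14+HGF replicate 3, and ADAM8 rose past it (0.59 to 0.63) without any of 7 arrays, namely 16HBE-WT replicates 1, 2 and 4, 16HBE-WT+HGF replicates 2, 3 and 4 and 16HBE-ex14 replicate 3.

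In the plasminogen activation list, 1 of 8 tested genes was called. SERPINE2, or protease nexin-1, an inhibitor of thrombin and plasminogen activators, read -0.89, -0.04, -0.29 and 0.17 in untreated 16HBE-WT cells and 0.42, 0.08, 0.88 and 0.41 with HGF. In 16HBE-ex14 it read -1.04, -1.07, -0.12 and -1.11 without and 0.42, 0.44, 0.78 and 0.59 with HGF. It overlapped by a single array in 16HBE-WT, and its difference was 1.05 ± 0.17 (adjusted p = 0.0106). PLAU, the urokinase, had 0.33 (adjusted p = 0.0746). None of 17 integrin subunits was called in the pooled test (list median 0.13). ITGA2 and ITGA10, the α chains of collagen receptors, had differences of 0.69 ± 0.18 (adjusted p = 0.0582) and 0.65 ± 0.21 (adjusted p = 0.114), and ITGB8 had -0.43 ± 0.17 (adjusted p = 0.184). The study named these subunits from comparisons other than the pooled one. In 16HBE-ex14 taken alone, ITGA2 (1.17, adjusted p = 0.00462) and ITGA10 (1.08, adjusted p = 0.0347) passed both limits. ITGB8 did not (-0.78, adjusted p = 0.0543). In 16HBE-WT they had 0.20, 0.21 and -0.08. In the pooled test ITGA2 passed both limits without 16HBE-WT replicate 2 or 16HBE-WT+HGF replicate 3 or 4 (0.73 to 0.78, adjusted p 0.0346 to 0.0495). ITGA6, the laminin-binding α chain, passed the p limit alone (0.30, adjusted p = 0.039). Of 12 laminin and hemidesmosome genes none was called, while the laminin chains LAMA3, with 0.51 (adjusted p = 0.0266), and LAMB3, with 0.33 (adjusted p = 0.0339), passed the p limit alone. A second LAMA3 probe had 0.18.

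Cytoskeletal and differentiation genes of the epithelium moved in both directions. VIM, the intermediate filament protein of mesenchymal cells, read -1.85, -1.67, -1.76 and -1.32 in untreated and -0.39, -0.90, -0.62 and -0.67 in HGF-treated 16HBE-WT cells. In 16HBE-ex14 it read 1.16, 0.89, 1.51 and 0.42 without and 3.38, 2.90, 3.49 and 3.44 with HGF. Both genotypes showed a full gap between treated and untreated arrays, on top of a higher level in 16HBE-ex14. The pooled difference was 1.66 ± 0.22 (adjusted p = 0.00951), that is 3.15-fold, and the call was kept when any single array was left out. Its antisense gene VIM-AS1 was below background on all 8 untreated arrays and on 2 of 4 HGF arrays of 16HBE-WT, and above it on all HGF arrays of 16HBE-ex14. It was at least 1.83-fold higher with HGF. The probe passed the filter on dim probes through its HGF arrays alone, so that its adjusted p (0.00951) is no more than a description, its call was lost with normexp (0.33), and a second VIM-AS1 probe had a difference of 0.01. In the list of mesenchymal genes, 13 were tested, VIM was raised and 2 were lowered, with a list median of 0.07. TGFB2, a TGF-β ligand, fell by 1.22 on the log2 scale (SE 0.21, adjusted p = 0.0131) but by less than the fold limit with normexp (-0.58), and SPARC, a matrix glycoprotein, fell by 0.60 (SE 0.13, adjusted p = 0.0272). The call of SPARC was lost without 16HBE-WT replicate 3, 16HBE-WT+HGF replicate 3, replicate 2 or 4 of 16HBE-ex14 or 16HBE-ex14+HGF replicate 2, 3 or 4 (-0.59 to -0.53). The transcription factors SNAI1, SNAI2, TWIST1 and ZEB2 had differences of 0.07, 0.07, 0.07 and 0.27 and passed no limit, with adjusted p from 0.294 to 0.847.

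KRT6B, a keratin induced in stressed and wounded epithelium, read -5.12, -5.09, -5.49 and -5.06 on the untreated 16HBE-WT arrays, none above background, and -3.49, -4.59, -3.42 and -3.68 with HGF. In 16HBE-ex14 it read -3.66, -4.89, -3.39 and -4.48 without and -1.21, -1.73, -1.62 and -1.97 with HGF. No treated array overlapped an untreated one within a genotype. The pooled difference was 1.93 ± 0.27 (adjusted p = 0.00951), and the level in 16HBE-WT was at least 1.40-fold higher with HGF. As 6 of the 8 untreated arrays were below background, the pooled size is not settled, and with normexp it was 0.55, under the fold limit. KRT6A, which is nearly identical in sequence and may share signal, had 0.63 (adjusted p = 0.0836). Among all 37 tested keratins, a family also picked after its values were seen, KRT6B and KRT34 were raised and KRT5, KRT14 and KRT17 lowered. Among 15 basal and stratified genes, KRT6B was raised and 3 were lowered, with a list median of 0.08.

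KRT5, the type II keratin of basal cells, read 2.58, 2.31, 2.61 and 3.04 in untreated and 2.04, 1.86, 1.83 and 2.29 in HGF-treated 16HBE-WT cells. In 16HBE-ex14, where it was much lower from the start, it read -0.12, 0.33, -0.03 and 0.07 without and -2.02, -1.90, -2.46 and -2.61 with HGF. All HGF arrays stood below the untreated ones of their genotype, by a narrow margin in 16HBE-WT. It fell by 1.47 on the log2 scale over both (SE 0.26, adjusted p = 0.0127). Its partner KRT14 fell by 0.73 (SE 0.16, adjusted p = 0.0253), while a second KRT14 probe had -0.37 and was not called. KRT17 fell by 0.77 (SE 0.16, adjusted p = 0.0227), or by less than the fold limit with normexp (-0.55). KRT14 and KRT17 missed the p limit without replicate 2 or 4 of 16HBE-ex14 or 16HBE-ex14+HGF replicate 2, 3 or 4, and KRT14 also without 16HBE-WT+HGF replicate 1 (adjusted p 0.0539 to 0.0602). TP63, the master factor of basal cells, had 0.39 (adjusted p = 0.222).

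Of 15 tested genes of simple and airway epithelium, 1 was raised and 2 lowered, and all 3 encode transcription factors. EHF, an ETS factor of epithelia, had untreated levels from -4.28 to -2.91 and HGF levels from -3.02 to -2.16, apart in each genotype, and a difference of 1.06 ± 0.15 (adjusted p = 0.00951), which normexp reduced to 0.30, under the fold limit. ELF3, another epithelial ETS factor, read 3.47, 3.14, 3.57 and 3.48 in untreated and 3.06, 3.13, 2.89 and 3.22 in treated 16HBE-WT cells, against 2.59, 3.14, 2.42 and 3.19 and 1.78, 1.45, 1.05 and 1.16 in 16HBE-ex14. It fell by 0.91 (SE 0.20, adjusted p = 0.0276), with an overlap in 16HBE-WT. FOXI1, the factor of ionocytes, lay between -2.87 and -1.18 without and between -5.18 and -2.88 with HGF. All 8 treated arrays were below all 8 untreated ones, by a narrow margin, with 1 of the 4 HGF arrays of 16HBE-ex14 above background, and it fell by 1.54 (SE 0.37, adjusted p = 0.0354), or by less than the fold limit with normexp (-0.42). The FOXI1 call was lost without any of 12 arrays, all but 16HBE-WT replicate 2, 16HBE-WT+HGF replicate 4, 16HBE-ex14 replicate 3 and 16HBE-ex14+HGF replicate 1 (adjusted p 0.0507 to 0.0787), and that of ELF3 without replicate 2 or 4 of 16HBE-ex14 or 16HBE-ex14+HGF replicate 2, 3 or 4 (adjusted p 0.0541 to 0.0634). CDH1, or E-cadherin, had -0.40 (adjusted p = 0.0531), and the simple keratins KRT8, KRT18 and KRT19 had 0.25, 0.15 and -0.01.

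**Figure D2:**
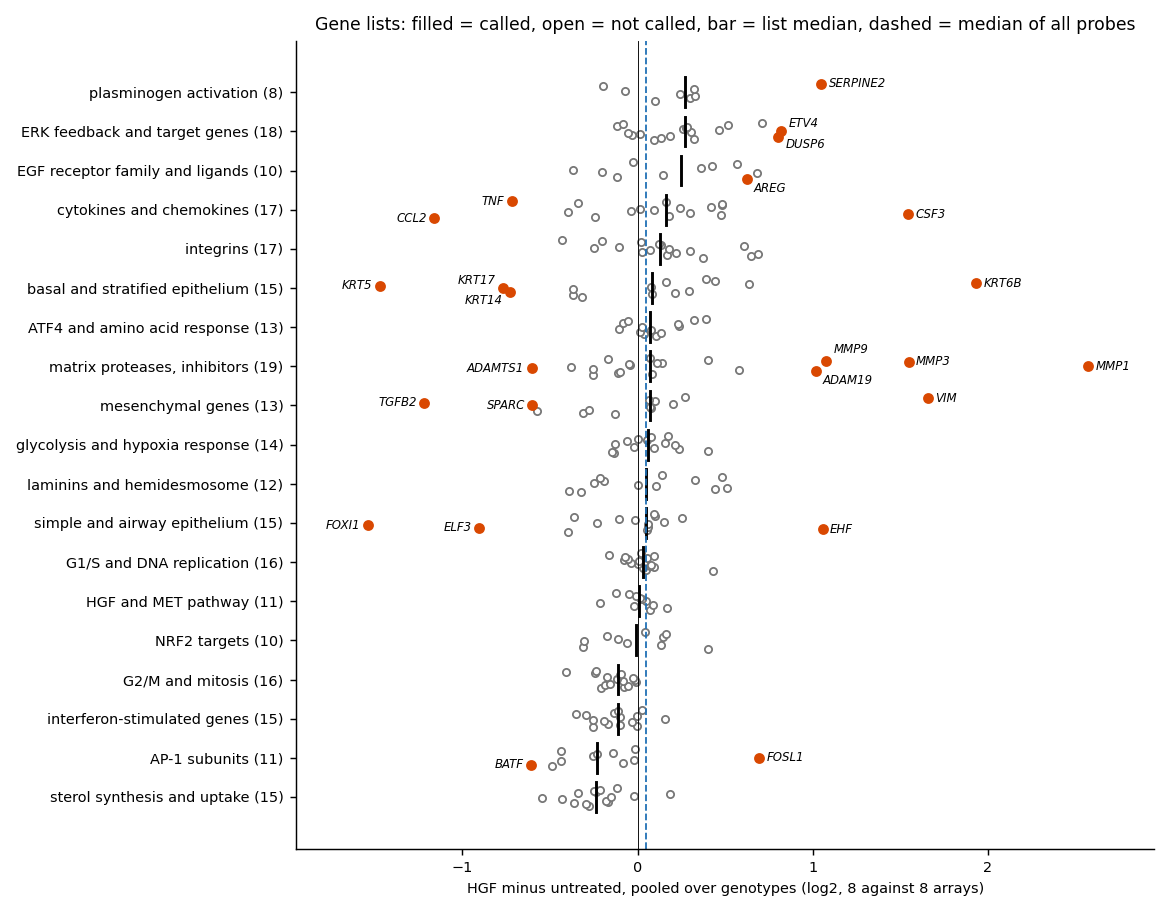
HGF minus untreated on the log2 scale, pooled over genotypes (x axis), for the tested genes of 19 lists (y axis, number of tested genes in brackets). Filled points passed both limits, the black bar is the list median and the dashed line the median of all tested probes, 0.05. Most lists centre near that line with single called genes far from it, such as MMP1 at 2.57 and KRT5 at -1.47.

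Genes of signalling downstream of MET were represented by few calls. MET itself read 4.83, 4.86, 5.19 and 5.03 in untreated and 4.87, 4.97, 5.04 and 5.16 in treated 16HBE-WT cells, and 4.92, 5.07, 5.27 and 5.19 against 5.14, 5.06, 5.23 and 5.28 in 16HBE-ex14. These ranges overlapped throughout, and the difference of 0.05 ± 0.05 (adjusted p = 0.605) turned to -0.01 with scaling to the spike-in probes and to -0.09 with scaling to the array median. The HGF probe was above background on no array. None of the 11 tested genes of the HGF and MET list, adaptors and HGF activators included, was called (list median 0.01).

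Of 18 tested ERK feedback and target genes, each counted by its brightest probe as in all the lists, 2 were called, both raised, and SPRY1 was called with a dimmer probe alone. By the brightest probes 14 of the 18 stood above 0, where 61.5% of all tested probes did, with a list median of 0.27. After scaling to the array median 11 did, where 30.3% of all tested probes did. The list median was 0.07 in 16HBE-WT and 0.44 in 16HBE-ex14. ETV4, an ETS factor of the PEA3 group, read -1.58, -1.09, -0.82 and -0.93 in untreated and -0.65, -1.09, -0.68 and -0.37 in treated 16HBE-WT cells, and -1.71, -1.77, -0.72 and -1.37 against -0.49, -0.39, 0.40 and -0.14 in 16HBE-ex14. The groups overlapped in 16HBE-WT, and the pooled difference was 0.82 ± 0.16 (adjusted p = 0.0187), a call lost with normexp (0.54) and without the slide term (adjusted p = 0.0538). DUSP6, the phosphatase that inactivates ERK, rose by 0.80 ± 0.20 (adjusted p = 0.0388), while a second DUSP6 probe had a difference of 0.03. It missed the p limit after scaling to the array median (0.66, adjusted p = 0.0645) or to spike-in probes (0.74, adjusted p = 0.0636) and without the slide term (adjusted p = 0.0857). Its call was kept only without 16HBE-WT replicate 2 or 3 or 16HBE-WT+HGF replicate 1 or 4, and the adjusted p was 0.0537 to 0.0896 without any of the other 12 arrays. SPRY1, an inhibitor of the RAS-ERK pathway, passed the p limit alone with its brightest probe (0.52, adjusted p = 0.0259) and both limits with the dimmer one (0.90 ± 0.20, adjusted p = 0.0281). SPRY4-AS1, named as antisense to another gene of that family, was below background on all untreated 16HBE-WT arrays, where its mean was at least 1.03-fold higher with HGF. In that genotype SPRY4-AS1 overlapped between treated and untreated arrays and missed the p limit (0.88 ± 0.48, adjusted p = 0.781). It rose by 1.41 ± 0.35 over both genotypes (adjusted p = 0.0426) or 0.30 with normexp, under the fold limit, a call that was lost without any of 11 arrays (adjusted p 0.0501 to 0.0932), namely 16HBE-WT replicate 1, 16HBE-WT+HGF replicates 1 and 3 and every 16HBE-ex14 and 16HBE-ex14+HGF array. A second SPRY4-AS1 probe had 1.02 and was not called. EGR1 and CCND1, further ERK targets of the list, had -0.03 and 0.09 at this time point.

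Among 11 AP-1 subunits, FOSL1, or FRA-1, rose and BATF fell, and 10 of the 11 stood below 0 under each scaling tried (list median -0.23). Below 0 were 13315 of all 34599 probes, or 24108 after scaling to the array median. The list median was -0.14 in 16HBE-WT and -0.30 in 16HBE-ex14. FOSL1 read 2.71, 3.24, 3.28 and 2.83 in untreated and 3.17, 3.58, 3.40 and 3.68 in treated 16HBE-WT cells, and 3.53, 3.14, 3.99 and 3.78 against 4.42, 4.39, 4.93 and 4.50 in 16HBE-ex14. The groups were apart in 16HBE-ex14 and overlapped in 16HBE-WT, and the difference was 0.69 ± 0.13 (adjusted p = 0.0168), which came under the fold limit after scaling to the array median (0.56). BATF fell by 0.61 (SE 0.13, adjusted p = 0.0275), or by less than the fold limit with normexp (-0.23), and came under the limits without 16HBE-WT replicate 1, 16HBE-ex14 replicate 1, 2 or 4 or any 16HBE-ex14+HGF array (-0.62 to -0.52, adjusted p 0.0452 to 0.0638). JUND passed the p limit alone (-0.44, adjusted p = 0.015), and FOS and JUN had -0.44 and -0.23 with adjusted p of 0.417 and 0.519.

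Secreted mediators changed in either direction. Of 17 tested cytokines and chemokines, 1 was raised and 2 lowered by their brightest probes, with a list median of 0.16, and CXCL10, a chemokine induced by interferon, was called with a dimmer probe (-0.61 ± 0.11, adjusted p = 0.0121) and not with its brightest (-0.40). CSF3, the granulocyte colony-stimulating factor, read -2.30, -1.77, -1.72 and -2.31 in untreated and -1.87, -0.70, -0.83 and -0.88 in treated 16HBE-WT cells, and -4.70, -5.34, -4.19 and -3.70 against -2.50, -3.11, -1.57 and -2.25 in 16HBE-ex14. Its difference was 1.54 ± 0.26 (adjusted p = 0.0109), with an overlap in 16HBE-WT, and 2 of 4 untreated arrays of 16HBE-ex14 were above background. With normexp the difference was 0.60, still called. A second CSF3 probe had 0.98 and was not called. CCL2, a chemoattractant of monocytes, read -1.80, -2.78, -1.77 and -1.98 in untreated and -2.79, -2.96, -3.23 and -2.74 in treated 16HBE-WT cells. In 16HBE-ex14, where it was far higher, it read 1.88, 2.26, 1.28 and 2.01 without and 0.66, 0.45, 0.04 and 0.36 with HGF. It fell by 1.16 (SE 0.19, adjusted p = 0.0104), overlapping narrowly in 16HBE-WT and not in 16HBE-ex14. TNF fell by 0.72 (SE 0.19, adjusted p = 0.0484), or by just less than the fold limit with normexp (-0.58), a call lost without any array other than 16HBE-WT replicate 2 or 4 or 16HBE-WT+HGF replicate 4 (adjusted p 0.0522 to 0.107). The acute cytokines IL1A, IL1B and CXCL8 had 0.48, 0.48 and 0.24, and IL6 -0.34, none past a limit.

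The interleukin-1 family, a group picked after its values were seen, had 2 called members of 10 tested, both raised. IL37, an anti-inflammatory member, read -3.39, -2.09, -2.90 and -2.59 in untreated and -1.77, -2.42, -2.04 and -1.94 in treated 16HBE-WT cells, and -3.55, -3.52, -2.63 and -3.38 against -1.11, -1.31, -0.82 and -1.02 in 16HBE-ex14. Its difference was 1.45 ± 0.26 (adjusted p = 0.0142), or 0.60 with normexp, with an overlap in 16HBE-WT. IL1RL1, the receptor of interleukin-33, rose by 1.44 ± 0.31 (adjusted p = 0.0266), with 1 of 4 untreated arrays of 16HBE-ex14 above background, and the call was lost with normexp (0.42) and without 16HBE-WT replicate 1, 16HBE-ex14 replicate 2 or 4 or any 16HBE-ex14+HGF array (adjusted p 0.0508 to 0.0615).

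The pregnancy-specific glycoproteins (PSG), secreted members of the carcinoembryonic antigen family known from the placenta, were lowered together. They were grouped after their values were seen. Of 8 PSG genes on the array 6 were tested and all 6 were lowered, with a median of -1.56. Their probes lie within chr19:43226130-43674267 on hg19 and the genes are close in sequence, so that they may share signal and were not counted as independent. PSG6 read -0.83, -2.0, -0.62 and -1.40 in untreated and -2.74, -2.25, -2.85 and -2.03 in treated 16HBE-WT cells. In 16HBE-ex14 it read -1.70, -0.96, -2.48 and -1.24 without and -3.16, -3.95, -3.32 and -3.49 with HGF. The arrays stood apart in each genotype, and the differences were -1.25 ± 0.36 in 16HBE-WT and -1.88 ± 0.36 in 16HBE-ex14, with -1.57 ± 0.26 pooled (adjusted p = 0.0106). PSG8 (-1.56 ± 0.27) was apart in both genotypes too, whereas PSG5 (-1.53 ± 0.28) and PSG1 (-1.12 ± 0.24) overlapped in 16HBE-WT. Of 3 PSG8 probes 2 were called, and the other had -0.30. PSG2 (-1.98 ± 0.44) and PSG3 (-1.96 ± 0.46) had the widest errors, and PSG2 was above background on 2 of 4 HGF arrays of 16HBE-WT and 1 of 4 of 16HBE-ex14. PSG2 thus passed the filter only with its untreated arrays, and its adjusted p is no more than a description. The order of PSG2 and PSG3 among the family is not settled, since with normexp the differences were -0.39 for PSG2, no longer called, -0.63 for PSG3, -0.66 for PSG6, -0.81 for PSG5 and -0.91 for PSG8. The calls of PSG2 and PSG3 were lost without 16HBE-WT replicate 1, 16HBE-WT+HGF replicate 1, replicate 1, 2 or 4 of 16HBE-ex14 or 16HBE-ex14+HGF replicate 2, 3 or 4, and that of PSG3 also without 16HBE-ex14+HGF replicate 1 or 16HBE-WT replicate 3 (adjusted p 0.0506 to 0.0792).

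Another placental gene, ALPP, the placental alkaline phosphatase, was lowered as well. It read 5.28, 4.68, 4.83 and 5.19 in untreated and 4.24, 4.32, 3.92 and 4.17 in treated 16HBE-WT cells, and 3.23, 3.57, 2.98 and 3.63 against 1.39, 1.35, 0.44 and 0.73 in 16HBE-ex14. All HGF arrays lay below the untreated arrays of their genotype, and ALPP fell by 1.6 (SE 0.25, adjusted p = 0.00953).

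The serum amyloid A genes, acute-phase apolipoproteins also grouped after their values were seen, had 3 of 4 tested genes lowered. SAA1 read 2.93, 2.48, 3.18 and 2.60 in untreated and 1.65, 2.17, 1.62 and 2.38 in treated 16HBE-WT cells, and 0.74, 1.34, 0.42 and 1.34 against -0.44, -0.75, -0.84 and -1.15 in 16HBE-ex14. It fell by 1.30 (SE 0.21, adjusted p = 0.0104), with no overlap in either genotype. SAA4 fell by 1.32 (SE 0.25) and SAA2 by 1.03 (SE 0.20), while the pseudogene SAA3P had -0.07. SAA1 and SAA2 are nearly identical and may share signal, and SAA4 was below background on all 4 HGF arrays of 16HBE-ex14, where it was at least 1.64-fold lower. The SAA4 call was lost with normexp (-0.30).

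**Figure D3:**
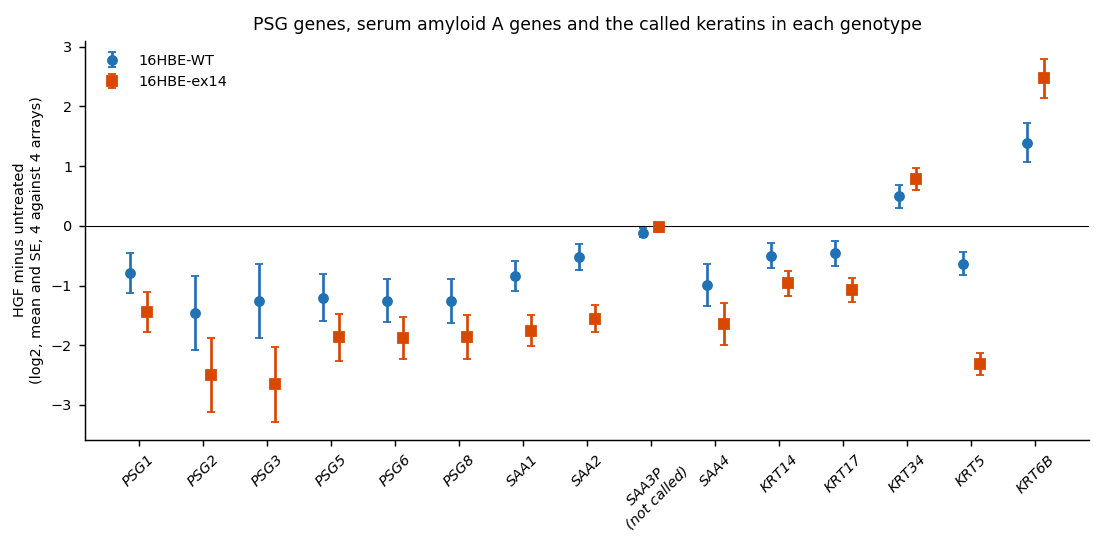
HGF minus untreated in each genotype (y axis, log2, mean with SE from the model, 4 against 4 arrays) for the tested PSG genes, the serum amyloid A genes and the called keratins (x axis). All 6 PSG genes, SAA1, SAA2 and SAA4 lie below 0 in both genotypes, with PSG6 at -1.25 in 16HBE-WT and -1.88 in 16HBE-ex14, and SAA3P lies near 0.

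Further single genes stood among the largest changes. COL13A1, a membrane-spanning collagen, read -0.78, 0.07, -0.29 and -0.05 in untreated and 0.87, 0.31, 1.13 and 0.66 in treated 16HBE-WT cells, and 0.30, -0.23, 1.2 and -0.15 against 2.45, 2.35, 2.65 and 2.56 in 16HBE-ex14. It rose by 1.61 ± 0.24 (adjusted p = 0.00951), apart in each genotype. ADGRL4, an adhesion G protein-coupled receptor, had differences of 1.39 ± 0.36 in 16HBE-WT and 1.79 ± 0.36 in 16HBE-ex14 (pooled adjusted p = 0.00982), but was below background on all untreated WT arrays, so that the size of its WT difference is not settled and the WT level is given as at least 1.31-fold higher. Its pooled difference of 1.59 became 0.40 with normexp, under the fold limit. A second ADGRL4 probe had 0.89 and was not called. FOXL1, a forkhead factor, rose by 1.35 ± 0.20 and PLCD4, a phospholipase C, by 1.28 ± 0.17, both with adjusted p = 0.00951 and arrays apart in each genotype. With normexp FOXL1 had 0.87 and PLCD4 0.51, the latter under the fold limit. A second PLCD4 probe had 0.44 and was not called. SYNDIG1, a membrane protein known from synapses, was above background on the 4 HGF arrays of 16HBE-ex14 alone, at least 1.14-fold over the untreated arrays there, and no fold is given for 16HBE-WT. It passed the filter through those 4 arrays alone and was not called with normexp (0.20, adjusted p = 0.0741).

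On the lowered side, SEMA3C, a secreted semaphorin, read -3.23, -3.25, -3.19 and -3.44 in untreated and -3.65, -3.78, -4.34 and -4.12 in treated 16HBE-WT cells, and -2.34, -2.29, -3.16 and -2.67 against -3.70, -3.41, -4.19 and -4.66 in 16HBE-ex14. It fell by 1.03 (SE 0.14, adjusted p = 0.00951), apart in each genotype, and 1 of the 4 HGF arrays of 16HBE-WT was above background. With normexp SEMA3C had -0.21, under the fold limit. Among 47 tested forkhead (FOX) genes, a family picked after its values were seen, FOXA2, FOXD1, FOXL1 and FOXQ1 were raised and FOXI1 and FOXO6 lowered, with a median of 0.07. WNT4, a WNT ligand, fell by 1.25 (SE 0.25, adjusted p = 0.0201) with the same separation, a second probe had -0.48, and the call was lost with normexp (-0.46). MGP, an inhibitor of calcification, fell by 1.42 (SE 0.29, adjusted p = 0.0223), a call lost without replicate 4 of 16HBE-ex14 or 16HBE-ex14+HGF replicate 2, 3 or 4 (adjusted p 0.0519 to 0.0541). PLEKHS1 was below background on all HGF arrays of 16HBE-ex14, where it was at least 2.76-fold lower, and both of its probes were called (-1.79 and -2.15), the brighter one not with normexp (-0.24). PLEKHS1 passed the filter with this brighter probe only through its untreated arrays, so that the adjusted p is no more than a description. The call of its brighter probe was lost without any of 11 arrays (adjusted p 0.0555 to 0.0804), namely 16HBE-WT replicates 1 and 4, 16HBE-WT+HGF replicate 3 and every 16HBE-ex14 and 16HBE-ex14+HGF array.

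No gene passed both limits in the lists of cell cycle, sterol synthesis, interferon response, glycolysis, ATF4 targets and NRF2 targets. All 16 tested G2/M genes stood below 0 under each scaling tried, by little (median -0.11). So did 14 of 15 sterol genes, with a median of -0.24. Of all 34599 probes 13315 stood below 0, and 24108 after scaling to the array median. The G2/M median was 0.01 in 16HBE-WT and -0.23 in 16HBE-ex14, and the sterol median was -0.22 and -0.29. Of the G2/M genes TOP2A, a topoisomerase of dividing cells, passed the p limit (-0.41, adjusted p = 0.0347), as did, of the sterol genes, HMGCS1, an enzyme early in the pathway (-0.54, adjusted p = 0.0276). HMGCS1 passed both limits without 16HBE-WT replicate 2 or 16HBE-ex14 replicate 1 (-0.62 to -0.60). In the G1/S list (median 0.03) CCNE1, or cyclin E1, passed the p limit in the other direction (0.43, adjusted p = 0.0106). Interferon-stimulated genes had a median of -0.11 with 13 of 15 below 0, among them OAS1 (-0.35, adjusted p = 0.015) and MX1 (-0.29, adjusted p = 0.0565). The medians were 0.06 for glycolysis and hypoxia, 0.07 for ATF4 targets and -0.01 for NRF2 targets, with VLDLR (0.39, adjusted p = 0.0129) and HMOX1 (-0.30, adjusted p = 0.0189) past the p limit. ANKRD37 and VEGFA, of the hypoxia list, had 0.40 and 0.17.

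A pooled difference can rest mostly on 1 genotype, and the values in each genotype were therefore set side by side. All 392 called probes had the same direction in both genotypes, compared with 65.3% of all tested probes, although the pooled rule favours this. In the called direction the median difference was 0.55 in 16HBE-WT and 1.09 in 16HBE-ex14, and 350 of the 392 changed less in 16HBE-WT. The fold exceeded 1.5 in both genotypes for 157 probes. The 4 HGF arrays lay above the 4 untreated arrays in each genotype for 58 of the 231 raised probes, where 0.344% of all probes did so. They lay below them for 47 of the 161 lowered probes, where 0.431% of all probes did so. The probes were called on these same arrays, which favours such gaps. The difference of the responses was tested by itself with a genotype by HGF term. No probe was called for it (smallest adjusted p 0.127, that of MMP1), while an unadjusted p below 0.05 was reached by 193 of the 392 called probes (49.2%), where 6.53% of all probes reached it, and 190 of the 193 changed more in 16HBE-ex14. Taken alone in the same model, 16HBE-WT gave no call (smallest adjusted p 0.156, 2374 probes with an unadjusted p below 0.05), and 16HBE-ex14 gave 820. Differences between genotypes that did not pass the test are not shown to be absent.

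**Figure D4:**
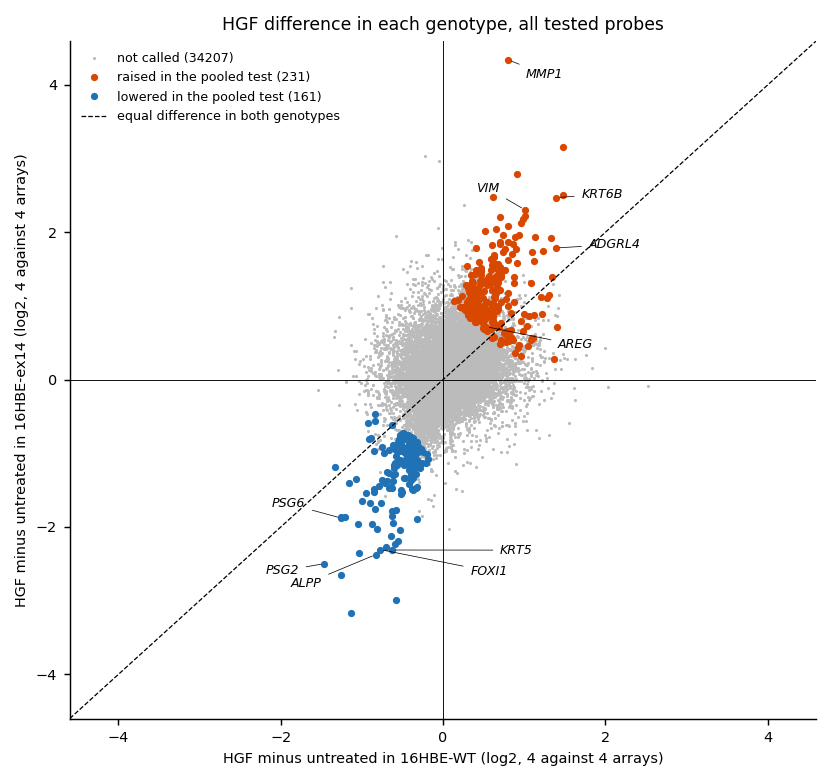
HGF minus untreated in 16HBE-WT (x axis) and in 16HBE-ex14 (y axis), log2, for all 34599 tested probes. Orange points are the 231 raised and blue points the 161 lowered probes of the pooled test, grey points were not called, and the dashed line marks equal differences. Called probes lie in the quadrants of equal sign and mostly on the side of a larger change in 16HBE-ex14, with MMP1 farthest from the line and AREG near it.

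The size of the difference between genotypes varied among the called genes. For AREG the genotypes differed by 0.19 (unadjusted p = 0.139) and for ADGRL4 by 0.39 (unadjusted p = 0.452). The 6 tested PSG genes differed by -1.39 to -0.60, with unadjusted p of 0.139 or more. For KRT5 the response was larger in 16HBE-ex14 by -1.68 (unadjusted p = 2.68e-05, adjusted p = 0.154), for ALPP by -1.54 (unadjusted p = 0.000104, adjusted p = 0.195) and for MMP1 by 3.54 (unadjusted p = 7.35e-06, adjusted p = 0.127). Within each slide, which held 8 arrays, no probe passed the adjusted limit. The 392 probes, which were chosen on the 16 arrays of both slides together and so favour a shared direction, had it on each slide, and the fold exceeded 1.5 for 346 of them on the first and 344 on the second.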

How the data were processed

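RNA of 16 cultures of 16HBE cells was hybridised to one-colour Agilent 60-mer arrays. Per the study's methods, values were extracted by the authors with Agilent Feature Extraction (10.7.3.1 per the submitters' processing notes), which subtracts background. The deposited scanner files give the processed signal as a linear intensity, and the deposited value table held the same intensity for every spot. No depth exists for arrays, and the number of arrays limits the precision.

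Here, log2 of the processed intensity minus the 75th percentile of each array was used. Spots marked as outliers by the scanner software were left out, and spots of a probe were averaged. Those probes that stood well above background on 4 or more arrays were fitted with limma 3.58.1 (R 4.3.3) on agent, genotype and slide, with Benjamini-Hochberg adjustment over 34599 probes. A genotype by HGF term gave the differences within and between genotypes. The code was tested on simulated data. Probe positions are those of the array annotation (hg19), and promoters are those of RefSeq on GRCh38.p14, so that the positions are not comparable.

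Members and gene lists were chosen with earlier results of these data known. Named were MET and HGF, genes the study discusses, the 10 largest rises and falls, the 8 rises and 8 falls with arrays apart in each genotype, and up to 4 called members of each list, or the 2 of smallest p; other genes were named after their values were seen. Some members that enter the counts and sums of the lists are not reported here by name. For a named gene with several probes, the called probe of highest signal is given, whereas lists were counted by each gene's brightest probe, called or not. Genes of near-identical sequence may share signal. p-values measure the spread between these arrays. Alternatives changed the background correction, scaling, filter, outlier spots, slide or slide row term, prior, array weights, fold limit and arrays used.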

Additional observations from a re-analysis of the deposited data

Results flagged for a closer look

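Among 292 groups of 4 values (71 genes and the array measures), 15 had an array apart from the other three by Dixon's criterion, and chance gives about 1 in 20, that is 15. In untreated 16HBE-WT cells these were replicate 1 for MMP9 (1.64), ADAMTSL4 (-0.05) and FOXL1 (-3.08), replicate 2 for HMGCS1 (1.62) and replicate 3 for KRT6B (-5.49) and KRT14 (2.51). In 16HBE-WT+HGF they were replicate 1 for CSF3 (-1.87) and replicate 4 for ADAM8 (7.07), TGFB2 (-0.97) and MX1 (3.13). In 16HBE-ex14 they were replicate 2 for DUSP6 (1.64) and replicate 3 for PLCD4 (-2.36) and SERPINE2 (-0.12), and in 16HBE-ex14+HGF replicate 3 for FOXL1 (1.18) and ST14 (1.40). All are levels on the log2 scale, and the KRT6B value lies below background.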

How the results depend on the processing

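The 392 probes called for HGF became 135 with normexp background correction, 43 without scaling, 228 without a filter on dim probes, 1180 without a fold limit, and 0 with limma's treat at a fold of 1.2 (993 with an unadjusted p below 0.05). Slide 1 alone and slide 2 alone, with 8 arrays each, gave 0 in limma (4754 and 3796 with an unadjusted p below 0.05). When each array was left out in turn the count ran from 181 (without 16HBE-ex14+HGF replicate 3) to 535 (without 16HBE-WT replicate 2). It moved by more than 1.5 times without replicate 2 (187) or 4 (194) of 16HBE-ex14, 16HBE-ex14+HGF replicate 2 (192), 3 or 4 (202), or 16HBE-WT+HGF replicate 1 (252). The difference between genotypes gave no call except with normexp (45), and between 0 and 21 calls when arrays were left out, with 21 without 16HBE-ex14 replicate 3 and 1 without 16HBE-WT+HGF replicate 2. MET turned from 0.05 to -0.09 with scaling to the array median and to -0.01 with scaling to spike-in probes, and stood at 0 without scaling. Quantile normalisation gave 363 calls, median scaling 479, spike-in scaling 283 and array weights 530. The replicate numbers coincide with slide rows, which the labels do not tie to a culture week. Deviations from the condition means correlated at 0.08 to 0.24 between treated and untreated arrays of the same number. They did so above 0.1 in 6 of 8 pairs and best with their own number in 2 of 8. The fitted correlation of the random replicate block was 0.119. These values do not settle whether arrays of the same number share a culture week, and the main model did not pair them. With the slide row as a fixed replicate block 298 probes were called, and as a random replicate block 386. Of the 45 called genes picked by the naming rule, the fixed replicate block lost 8, namely MMP3, IL1RL1, SPRY4-AS1, PSG3, PLEKHS1, FOXI1, TNF and DUSP6, and the random one lost SPRY4-AS1 and DUSP6. Scaling to spike-in probes lost 8 (SPRY4-AS1, PSG3, PLEKHS1, FOXI1, AREG, SPARC, TNF and DUSP6), leaving out the slide term 4 (SPRY4-AS1, TNF, ETV4 and DUSP6), the percentile over probes above background on all arrays 1 (TNF), and no filter on dim probes 14, the 8 of the fixed block with PSG2, SPARC, KRT17, KRT14, ELF3 and BATF. Without scaling 30 of the 45 were lost. The normexp setting changed the background subtraction as well as adding an offset, and the part of each was not tested. The cause of the other changes was not tested.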

Other observations

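Groups of related genes that the report does not describe were looked up after their values were seen, and are given as values. Metallothioneins, small metal-binding proteins, had 15 tested probes of 12 genes, all above 0 after scaling to the 75th percentile (median 0.44), where 61.5% of all probes were, and 12 of 15 after scaling to the array median (median 0.30), where 30.3% of all probes were. Called raised were 6 probes of 5 genes (2 probes with scaling to the array median and 0 without scaling), such as MT1HL1 (0.82 ± 0.16, adjusted p = 0.0195) and MT1A (0.70 ± 0.14, adjusted p = 0.0213). These genes are close in sequence and their probes may share signal. MT2A had 0.13 (adjusted p = 0.418).

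Caveolins, the coat proteins of caveolae, were called lowered in 4 of 5 probes (2 with normexp and 1 without scaling), where 0.465% of all tested probes were. CAV1 had -0.72 ± 0.11 (adjusted p = 0.00951) and -0.66, and CAV2 had -0.65 and, under the fold limit, -0.43. CAVIN3, of the cavin coat, was raised (0.71 ± 0.15, adjusted p = 0.0227), and CAVIN1 had -0.13 and -0.04. Of 30 probes of 16 actomyosin genes, 27 lay below 0 (median -0.17), or 27 to 29 under the other scalings and background correction. Of all 34599 probes 13315 lay below 0, and 24108 after scaling to the array median. Among the 30 probes 6 were called lowered (1 without scaling), where 0.465% of all tested probes were. They were probes of the contractile genes MYL9 (-0.76), MYLK (-0.80 and -0.76) and TPM1 (-0.72, -0.71 and -0.65). The receptor FGFR2 was lowered by both probes (-0.88 and -0.85, adjusted p = 0.0248 and 0.0257), and the aldehyde dehydrogenase ALDH1A1, which makes retinoic acid, was as well (-0.94 and -0.63).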
